A study of Saccharomyces cerevisiae with 17 samples.

Results

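Loss of Rrp6 was examined in *Saccharomyces cerevisiae* cells that all carried Chd1-Ume6, an engineered fusion of the nucleosome-sliding enzyme Chd1 with the DNA-binding domain of the repressor Ume6. Rrp6 is a nuclear 3′ to 5′ exonuclease of the RNA exosome. It trims the 3′ ends of small nucleolar RNAs (snoRNAs) and of other structured RNAs, and it removes short unstable transcripts that the Nrd1-Nab3-Sen1 complex terminates early. The TRAMP complex adds short adenosine tails that mark such RNAs for the exosome. The *rrp6* deletion with Chd1-Ume6 (2 isolates) was compared with wild type carrying Chd1-Ume6 (2 isolates), which makes 4 of the 17 samples in the series. The comparison took in every gene with a value in the 3 workbook sheets of these strains, which were 6367 of the 6744 gene names in the files. Of these, 6301 passed the filter on low values and were tested.

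The strains were of the W303 background and were grown to an OD600 of 0.4 to 0.6. Ribosomal RNA was removed from total RNA, and libraries that keep the strand were made and sequenced. Both groups carried the fusion, and the wild type cells kept their own *UME6*, so the comparison concerns the *RRP6* deletion in the presence of the fusion. Nothing in the labels shows whether numbered isolates were grown as separate cultures. A p-value here measures the spread between these libraries, which may be technical.

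Values are FPKM, fragments scaled by gene length and by the fragments of a library, and they were tested as log2(FPKM + 1), a scale that compresses changes at low FPKM. In what follows "change" is the difference on that scale, *rrp6* with the fusion minus wild type with the fusion, ± the standard error, with n = 2 and n = 1. A gene "rose" when its Benjamini-Hochberg adjusted p in limma was under 0.05. Only isolate 2 of wild type with the fusion was in the workbook with the *rrp6* isolates. The other wild type library came from the first table, which the authors normalized separately, so it is set beside the others without a test. The column names of that table give no unit, and its values were read as FPKM. The 2 *rrp6* isolates without the fusion were in the workbook too. They and the *rrp6* isolates with the fusion gave the fit its estimate of the spread, and their values are shown for reference.

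The 2 wild type libraries with the fusion stood apart in their stress genes. The summed FPKM of 5 markers of stressed or stationary cells (*HSP12*, *HSP26*, *CTT1*, *DDR2* and *SPI1*) was 510.0 in the workbook library and 124 in the first-table library. It was 769 and 1262 in the *rrp6* isolates with the fusion, and 242 and 84.9 in those without. *HSP12* alone was 594 and 711 in the *rrp6* isolates with the fusion. In isolate 1 each of the other markers was below the workbook wild type library. *HSP26* was 44.3 against 77.5, *SPI1* 28.1 against 95.3, *CTT1* 15.4 against 60.9 and *DDR2* 87.2 against 169.8. In isolate 2 *HSP26* (57.8) and *CTT1* (46.8) were below that library, and *SPI1* (125) and *DDR2* (321) above it. The workbook library also listed *SCR1*, the RNA of the signal recognition particle, at 191178 of its summed FPKM of 1216137, while that gene had no value in any *rrp6* library. The part of these differences in the changes below was tested only by leaving out a library or *SCR1*.

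The deletion was visible in the targeted gene. *RRP6* had an FPKM of 62.3 and 74.2 in fusion-carrying wild type, and 77.1 in the wild type column without the fusion. In *rrp6* with the fusion it was 0.252 in isolate 2 and had no value in isolate 1, and without the fusion it was 1.68 and 0.125. Missing values kept *RRP6* out of the fit, and the libraries of the 2 genotypes were far apart. *CHD1*, read from the fusion and the native gene together, had an FPKM of 449 and 505 in wild type against 288 and 276 in *rrp6*, both with the fusion. In *rrp6* without the fusion it was 32.2 and 30.6. The change of *CHD1* was -0.67 ± 0.30, with a limma adjusted p of 0.384. *UME6* had an FPKM of 39.5 and 47.8 in wild type and 35.5 and 27.6 in *rrp6* with the fusion, against 10.9 and 9.38 in *rrp6* without it. Both *rrp6* isolates with the fusion therefore held many times the *CHD1* signal of those without it, at a level below both wild type libraries. *URA3* followed the same order, with an FPKM of 472 and 437 in wild type and 272 and 216 in *rrp6* with the fusion, against 58.5 and 72.2 in *rrp6* without it.

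A small set of genes held more RNA in the cells without Rrp6, many by large amounts. In limma, 73 of 6301 genes rose (1.16%) and 0 fell (0%). At an unadjusted p under 0.05 there were 792 higher and 112 lower genes. Some alternatives did call lower genes, up to 49 when the fit held only the 3 sheets of the comparison. The changes of the 73 ran from 1.90 to 6.90, while the lowest change among all genes tested was -2.45. The median change of all genes was 0.10. It moved to -0.07 with quantile normalization and to -0.08 when each sheet was centred on its median, so medians of gene groups are to be read against it.

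The first-table library gave a second view of the same genes. Both *rrp6* isolates were at least 2-fold above both wild type libraries in 219 of 6289 genes (3.48%) and at least 2-fold below both in 7 (0.111%). By any amount, both isolates were above both wild type libraries in 1633 genes (26%) and below both in 1098 (17.5%). Of the 73 genes that rose, 72 had a value in the first table. In all 72 both *rrp6* isolates lay above both wild type libraries, and in 62 by at least 2-fold. These genes were chosen by the same *rrp6* values against the workbook library, so only the first-table library was new to these 2 counts. Both *rrp6* isolates without the fusion were also above the workbook wild type library in all 73. That library was the control by which the 73 were chosen, so this count is no separate support for them. Against the first-table library it did not hold for every gene, as *DPA10* was at 1.42 and 1.53 against 13.7.

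The number of calls depended on single libraries. It was 52 without isolate 1 of *rrp6* with the fusion and 21 without isolate 2, of which 40 and 16 were among the 73. It was 9 when the workbook wild type library was left out of a fit over both tables, and 425 or 424 when 1 of the *rrp6* isolates without the fusion was left out, with 1 residual degree of freedom. With quantile normalization 7 genes rose, all among the 73. Over 19 alternatives, all 73 genes stayed higher in each alternative that included them. In every alternative 6 of them passed the threshold, namely *YJL047C-A*, *YKL102C*, *EFM3*, *CMC4*, *LIN1* and *YMR194C-A*.

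**Figure D1:**
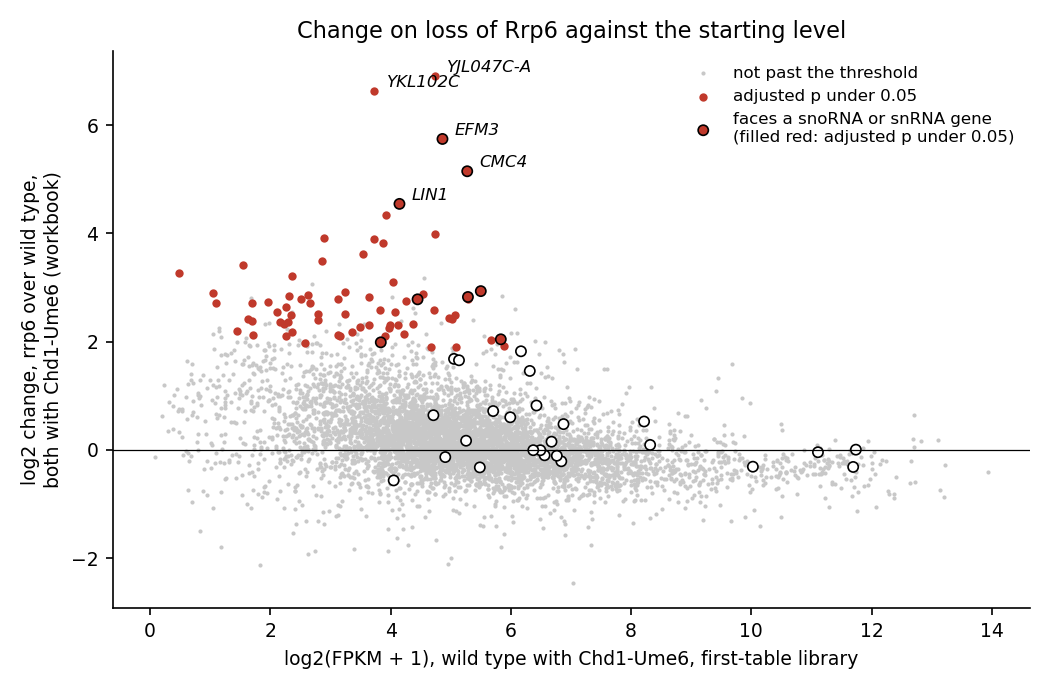
Each point is a gene with a value in both tables. The x axis is its log2(FPKM + 1) in the first-table library of wild type with Chd1-Ume6 and the y axis its log2 change in the workbook, *rrp6* over wild type. The 72 genes plotted in red rose and sit at low to middle levels, and 8 of the 33 outlined genes, which face a snoRNA or snRNA gene, are among them.

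The genes that rose were mostly weakly expressed in wild type. Their median FPKM was 4.75 in the workbook wild type library and 11.0 in the first-table library, against 29.2 and 33.8 for all genes tested. The first-table library took no part in the test, so genes were grouped by their level there. Of 845 genes with an FPKM between 1 and 10, 33 rose (3.91%), the median change was 0.57, and 104 (12.3%) were at least 2-fold above both wild type libraries in both *rrp6* isolates. The 2-fold count uses the same first-table level that set the groups, so a low group favours it. Of 4147 genes between 10 and 100, 38 rose (0.916%) and the median change was 0.15. Of 1069 genes between 100 and 1000 and 174 genes above that, 0 rose, and the median changes were -0.19 and -0.33. Higher starting levels thus went with lower changes in this comparison, as the plot of change against starting level shows. The workbook wild type value was below the first-table value in 62 of the 72 and in 3910 of all genes tested, and the workbook value entered the test.

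Of the 5 largest rises, 4 were in genes that lie against snoRNA genes in the RefSeq annotation (assembly R64, used for gene order only). *YJL047C-A*, a small open reading frame that partly overlaps *SNR60* on the same strand, had an FPKM of 11.3 and 25.7 in wild type with the fusion. In *rrp6* with the fusion it was 1226 and 1770, and in *rrp6* without it 1279 and 2101. The groups lay far apart, and the change was 6.90 ± 0.41 (limma adjusted p = 0.00321). Whether the authors' counting used strand is not given, so reads of overlapping or facing genes, and of the extended snoRNA itself, cannot be told apart in what follows. The snoRNAs themselves were not analysed here.

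Genes that face a snoRNA or small nuclear RNA (snRNA) gene, with the 3′ ends towards each other and at most 1000 bases between them, held 8 of the 73 calls. There were 33 such genes tested, of which 8 rose (24.2%, against 1.16% of all genes). In 10 (30.3%, against 3.48% of all genes) both *rrp6* isolates were at least 2-fold above both wild type libraries. The median change of the 33 was 0.52, against 0.10 for all genes. With isolate 2 of *rrp6* with the fusion left out, or the workbook wild type library, 3 of the 33 rose. *EFM3*, which methylates a lysine of translation elongation factor 2 and faces *SNR3*, had an FPKM of 21.0 and 28.1 in wild type and 1019 and 1363 in *rrp6* with the fusion. In *rrp6* without the fusion it was 1686 and 1141. The change was 5.74 ± 0.37 (limma adjusted p = 0.00354). No *rrp6* library came near the wild type values.

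*CMC4*, a protein of the mitochondrial intermembrane space whose gene faces *SNR11*, had an FPKM of 53.6 and 37.7 in wild type and 1519 and 2460 in *rrp6* with the fusion. Without the fusion the *rrp6* isolates held 3065 and 4616. The change was 5.15 ± 0.41 (limma adjusted p = 0.00733). *LIN1*, a nuclear protein whose gene faces *SNR71*, followed the same pattern at a lower level. Its FPKM was 14.6 and 16.7 in wild type, 298 and 444 in *rrp6* with the fusion, and 393 and 354 in *rrp6* without it, a change of 4.54 ± 0.36 (limma adjusted p = 0.00733). For both genes the *rrp6* isolates with and without the fusion lay well above wild type.

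The other 5 facing genes that rose did so by less. *KTR2*, a mannosyltransferase whose gene faces *SNR42*, had an FPKM of 22.3 and 44.3 in wild type and 163 and 191 in *rrp6* with the fusion, a change of 2.93 ± 0.31 (limma adjusted p = 0.0207). *POP6*, a subunit of RNase P and RNase MRP whose gene faces *SNR46*, went from 17.2 and 38.0 to 104 and 158, a change of 2.82 ± 0.37 (limma adjusted p = 0.0288). *GLO4*, a mitochondrial glyoxalase whose gene faces *SNR9*, went from 23.6 and 20.9 to 141 and 201, a change of 2.78 ± 0.34 (limma adjusted p = 0.0269). In each of these the groups did not overlap. *MMS2*, a ubiquitin-conjugating enzyme variant of DNA repair whose gene faces *SNR10*, had an FPKM of 76.0 and 56.0 in wild type and 292 and 341 in *rrp6* with the fusion, a change of 2.04 ± 0.32. *DAS1*, an F-box protein whose gene faces *SNR128* and *SNR190*, had 8.58 and 13.3 in wild type and 33.8 and 40.3 in *rrp6* with the fusion, a change of 1.99 ± 0.31. These 5 calls were lost when isolate 2 of *rrp6* with the fusion was left out, with limma adjusted p between 0.0508 for *KTR2* and 0.111 for *MMS2*. They were also lost when the workbook wild type library was left out, where the change was 0.9995 for *POP6*, 1.38 for *DAS1*, 2.31 for *KTR2*, 2.61 for *MMS2* and 3.04 for *GLO4*.

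Most facing genes did not pass the test. Among the 25 that did not pass the threshold, *CUE5*, a ubiquitin-binding adaptor of protein clearance, had a change of 1.82, and the lowest change in the group was -0.57. Of all 33, 22 had a positive change (66.7%, against 58.1% of all genes), and both *rrp6* isolates were above both wild type libraries in 17, against 26% of all genes.

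The other positions showed fewer calls. Of 33 genes that lie downstream of a snoRNA or snRNA gene on the same strand, 2 rose (6.06%, against 1.16% of all genes). The median change of these 33 was 0.19, against 0.10 for all genes. *YDR042C*, downstream of *SNR47*, had an FPKM of 4.99 and 6.40 in wild type and 77.2 and 103 in *rrp6* with the fusion, a change of 3.91 ± 0.47 (limma adjusted p = 0.0269). *RGT1*, a glucose-responsive repressor of hexose transporter genes downstream of *SNR69*, had 24.5 and 32.4 in wild type and 165 and 121 in *rrp6* with the fusion, a change of 2.48 ± 0.33 (limma adjusted p = 0.0307). Both pairs of groups were apart in every library. Without isolate 2 of *rrp6* with the fusion the changes were 3.70 and 2.71, with limma adjusted p of 0.0566 and 0.0520. Without the workbook wild type library they were 2.82 and 2.29, with limma adjusted p of 0.134 and 0.0831. *RGT1* also missed the threshold without isolate 1, with a change of 2.26 and a limma adjusted p of 0.0611. Of 29 genes placed back to back with a snoRNA or snRNA gene, 0 rose and the median change was 0.02. Of 8 genes that hold a snoRNA in an intron or within the gene, 0 rose, with a median change of -0.39. A gene between 2 such RNAs counts in more than 1 class, and the classes were not tested against each other.

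**Figure D2:**
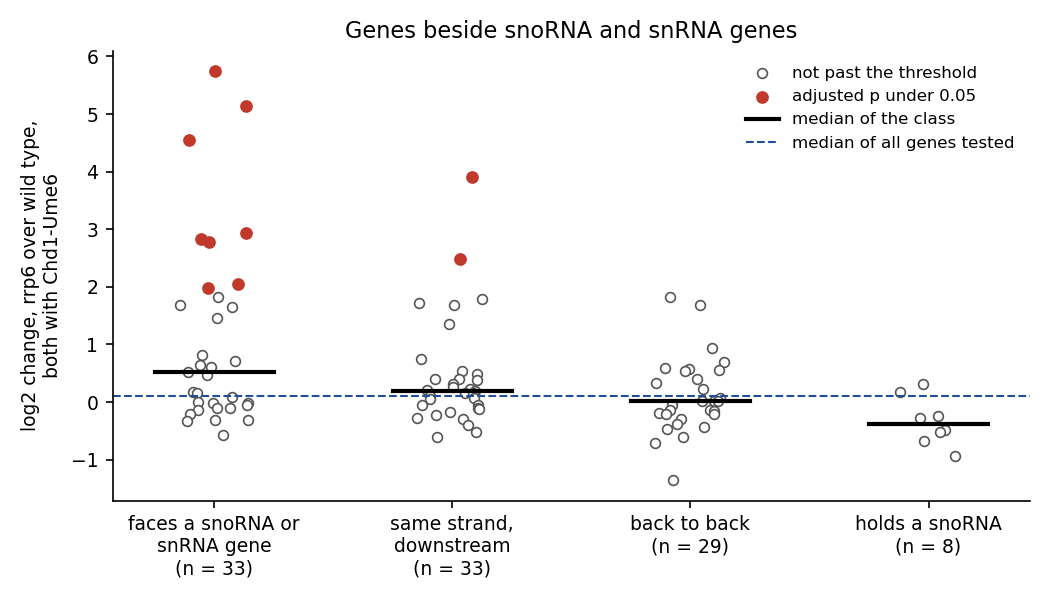
Each point is a gene beside a snoRNA or snRNA gene, by its position, with the log2 change on the y axis, *rrp6* over wild type, both with Chd1-Ume6. Filled points passed an adjusted p under 0.05, black bars are class medians (0.52, 0.19, 0.02 and -0.39) and the dashed line is the median of all genes tested, 0.10.

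Several of the largest rises were open reading frames outside these position classes or with no RefSeq entry. Names with no entry were not placed by position, so they may also lie beside snoRNA genes. *YMR194C-A* below is one of them, and its systematic name is next to that of *CMC4* (*YMR194C-B*), which faces *SNR11*. *YKL102C* had an FPKM of 1.10 in the workbook wild type library and 12.3 in the first-table library. In *rrp6* with the fusion it was 196 and 216, and in *rrp6* without it 89.2 and 64.1. The change was 6.62 ± 0.34 (limma adjusted p = 0.00231), and without the workbook wild type library it was 3.61 (limma adjusted p = 0.0387). All *rrp6* libraries were above both wild type libraries, and the isolates with the fusion were the higher pair. *YMR194C-A*, with no RefSeq entry, had 20.7 and 10.6 in wild type and 219 and 317 in *rrp6* with the fusion, a change of 3.61 ± 0.35 (limma adjusted p = 0.0169). *YPR092W*, also with no entry, had 13.8 and 12.3 in wild type and 180.0 and 269 in *rrp6* with the fusion, a change of 3.90 ± 0.51 (limma adjusted p = 0.0288). Both lay apart from wild type in all libraries, although the call of *YPR092W* was lost without isolate 2 of *rrp6* with the fusion (change 3.61, limma adjusted p = 0.0599) and without the workbook wild type library (change 3.88, limma adjusted p = 0.0831). In all, 15 of the 494 tested names with no RefSeq entry rose (3.04%), against 1.16% of all genes. Their median change was 0.11, against 0.10 for all genes. Both *rrp6* isolates with the fusion were at least 2-fold above both wild type libraries in 21 of 491 (4.28%), against 3.48% of all genes. With both wild type libraries used, the class thus lay near all genes.

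In many of the genes that rose, the size of the change depended on which wild type library was used. Without the workbook wild type library it was 3.61 instead of 6.62 for *YKL102C*, and 0.9995 instead of 2.82 for *POP6*. For *MLS1* it was 0.39 instead of 2.58. In others it was larger, as in *YMR194C-A* with 5.24 instead of 3.61. *YKL162C-A*, which has no RefSeq entry, had an FPKM of 1.72 and 14.2 in wild type, 49.8 and 58.7 in *rrp6* with the fusion, and 17.5 and 17.1 in *rrp6* without it. Its change of 4.34 ± 0.31 (limma adjusted p = 0.00477) became 2.51 without the workbook wild type library (limma adjusted p = 0.102). *DPA10* had 0.677 and 13.7 in wild type and 19.3 and 26.6 in *rrp6* with the fusion, but 1.42 and 1.53 in *rrp6* without it. Its change of 3.82 ± 0.35 (limma adjusted p = 0.0148) became 0.27 without the workbook wild type library (limma adjusted p = 0.91). The *rrp6* isolates without the fusion were thus close to the workbook wild type library and far below the first-table one. For *SNZ1*, an enzyme of vitamin B6 synthesis, the *rrp6* isolates with the fusion were themselves far apart, at 391 and 158. *SNZ1* had 14.8 and 25.8 in wild type, and 51.9 and 23.0 in *rrp6* without the fusion. Its change was 3.98 ± 0.65 (limma adjusted p = 0.0486). Its call was lost without isolate 1 of *rrp6* with the fusion (change 3.33, limma adjusted p = 0.0656) and without the workbook wild type library (change 3.16, limma adjusted p = 0.25).

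**Figure D3:**
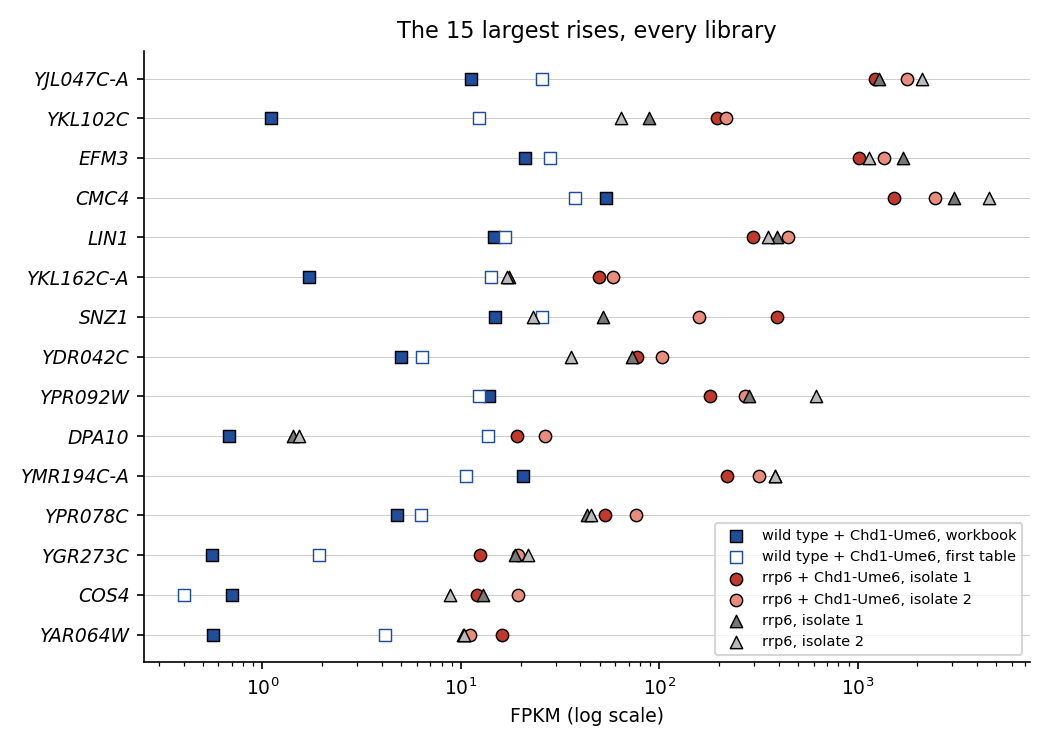
The FPKM of the 15 genes with the largest rises is shown on a log axis in each library, as squares for wild type with Chd1-Ume6, circles for *rrp6* with Chd1-Ume6 and triangles for *rrp6* without it. In each of the 15 both circles lie to the right of both squares, which was a condition of their choice. For *DPA10* both triangles (1.42 and 1.53) lie between the squares (0.677 and 13.7).

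Among the genes of the RNA surveillance machinery, *NRD1* was the one that passed the test. *NRD1* encodes the RNA-binding subunit of the Nrd1-Nab3-Sen1 termination complex, and in yeast its own transcript is known to be a target of early termination. It had an FPKM of 32.3 and 38.2 in wild type and 217 and 239 in *rrp6* with the fusion, and 201 and 151 in *rrp6* without it. The change was 2.78 ± 0.33 (limma adjusted p = 0.0269), and every *rrp6* library was above both wild type libraries. Without isolate 2 of *rrp6* with the fusion the change was 2.71 (limma adjusted p = 0.0567), and without the workbook wild type library it was 2.48 (limma adjusted p = 0.0771). The partner genes *NAB3* and *SEN1* had changes of 0.59 and 0.60 and did not pass the threshold, and 1 of 8 genes of the Nrd1 pathway list rose.

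The remaining exosome subunits did not move together. Of 12 tested members of the nuclear exosome list, 0 rose or fell and the changes lay between -0.22 and 0.56, with a median of -0.02. The median was 0.35 in isolate 1 and -0.31 in isolate 2 of *rrp6* with the fusion. Of the 5 TRAMP genes 0 passed the threshold. *TRF5*, a poly(A) polymerase of TRAMP, had the largest change, with an FPKM of 9.54 and 31.2 in wild type and 34.0 and 17.1 in *rrp6* with the fusion. Its 2 groups overlapped. *MTR4*, the helicase that feeds RNA into the exosome, had 79.4 and 107 in wild type and 65.3 and 33.1 in *rrp6* with the fusion, a change of -0.76 ± 0.47. Of 18 genes of cytoplasmic RNA decay, 0 passed the threshold.

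Genes whose transcripts are known in yeast to be cut short by early termination or to be regulated through the exosome gave 1 call in 10, again *NRD1*. Both *rrp6* isolates were above both wild type libraries in 7 of the 10, against 26% of all genes, and at least 2-fold above both in 3, against 3.48%. The median change was 0.67. *TIS11*, an RNA-binding protein that promotes decay of messages in iron shortage, had an FPKM of 12.5 and 13.4 in wild type and 35.5 and 43.0 in *rrp6* with the fusion. The change was 1.57 ± 0.31, with a limma adjusted p of 0.0764. *NAB2*, a poly(A)-binding protein whose message is regulated in yeast through an adenosine tract and Rrp6, had 62.5 and 54.1 in wild type and 133 and 125 in *rrp6* with the fusion. Its change was 1.03 ± 0.31, with a limma adjusted p of 0.193. For both genes the groups did not overlap, yet the test did not call them. *URA2* and *IMD2*, enzymes of nucleotide synthesis, had changes of -0.06 and 0.19.

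Genes of RNase P and RNase MRP, which cut the precursors of transfer RNA and ribosomal RNA, gave 2 calls in 11. That is 18.2%, against 1.16% of all genes. All 11 changes were positive, against 58.1% of all genes, with a median of 0.55. Both *rrp6* isolates were above both wild type libraries in 4 of the 11, against 26% of all genes. They were at least 2-fold above both in 1, against 3.48%. The median FPKM of the list was 20.5 in the workbook wild type library and 38.0 in the first-table library. One call was *POP6*, described above as a neighbour of *SNR46*. The other was *RPR2*, a subunit of RNase P, with an FPKM of 13.3 and 33.0 in wild type and 51.0 and 54.1 in *rrp6* with the fusion. Its change of 1.90 ± 0.30 (limma adjusted p = 0.0441) was 1.22 without the workbook wild type library (limma adjusted p = 0.261). It was 1.94 and 1.86 without isolate 1 and isolate 2 of *rrp6* with the fusion, with limma adjusted p of 0.0754 and 0.0893. The RNA subunits *RPR1* and *NME1* had changes of 0.64 and 0.20 and were not called. For *RPR1* the FPKM was 15698 and 6649 in wild type and 18753 and 31978 in *rrp6* with the fusion.

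Of 21 genes of the cell wall and the cell integrity pathway that controls it, 1 rose, which was *KTR2*, and the median change was 0.95. Both *rrp6* isolates were above both wild type libraries in 14, against 26% of all genes. *PIR3*, a structural wall protein, had an FPKM of 37.2 and 22.4 in wild type, 183 and 642 in *rrp6* with the fusion, and 92.7 and 112 in *rrp6* without it. *GSC2*, a glucan synthase induced by wall damage, had 43.3 and 57.0 in wild type, 282 and 356 in *rrp6* with the fusion, and 114 and 38.7 in *rrp6* without it. Both genes were apart between the 2 groups with the fusion. Their changes were 3.17 ± 0.68 and 2.84 ± 0.60, with limma adjusted p of 0.0883 and 0.0873. Without isolate 1 of *rrp6* with the fusion the change of *PIR3* was 4.07 and passed (limma adjusted p = 0.0178), and without isolate 2 it was 2.27 (limma adjusted p = 0.0664). Without the workbook wild type library that of *GSC2* was 1.87 (limma adjusted p = 0.407). *CWP1*, another wall protein, had a change of 2.00 ± 0.46 with a limma adjusted p of 0.102.

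Genes of meiosis and sporulation, which include direct targets of Ume6, stayed at low levels. Of 32 early meiotic genes 1 rose, and the median change was 0.48, or -0.01 with quantile normalization. *SPO13*, a regulator of the first meiotic division, had an FPKM of 1.25 and 3.82 in wild type and 9.37 and 8.07 in *rrp6* with the fusion. The change was 2.11 ± 0.34 (limma adjusted p = 0.0459), and the call was lost without either isolate of *rrp6* with the fusion (limma adjusted p = 0.107 and 0.0893) and without the workbook wild type library (change 1.26, limma adjusted p = 0.283). Of 17 middle sporulation genes 1 rose, the septin gene *SPR3*, with 0.937 and 1.14 in wild type and 12.4 and 11.0 in *rrp6* with the fusion. The median of that list was 0.89, and 6 of the 17 (35.3%) were at least 2-fold above both wild type libraries in both isolates. This compares with 3.48% of all genes, but the list is weakly expressed, with a median FPKM of 3.04 and 5.46 in wild type. Among all genes with a first-table FPKM between 1 and 10 the share was 12.3% and the median change 0.57. Below an FPKM of 1 the share was 16.7%. The change of *SPR3*, 2.71 ± 0.37 (limma adjusted p = 0.0312), also missed the threshold without isolate 1, without isolate 2 or without the workbook wild type library, with limma adjusted p of 0.0663, 0.0626 and 0.123. Both genes stayed below 29.2, the median FPKM of all genes in the workbook wild type library, in every library. Markers of meiotic cells (*IME2*, *SPO11*, *HOP1*, *DMC1* and *NDT80*) summed to an FPKM of 53.7 and 45.7 in wild type and 64.8 and 85.1 in *rrp6* with the fusion, and none was at 0.

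Among genes with the deposited motif entry, 5 of 229 tested rose (2.18%), against 1.16% of all genes. Of 12 metabolic genes controlled through the URS1 element that Ume6 binds, 1 rose, and the median change was 0.91. It was *POT1*, the thiolase of peroxisomal fatty acid oxidation, with an FPKM of 2.86 and 4.15 in wild type and 17.4 and 15.6 in *rrp6* with the fusion. Its change was 2.18 ± 0.31 (limma adjusted p = 0.0341), and without the workbook wild type library it was 1.46 (limma adjusted p = 0.203). Without isolate 1 and isolate 2 of *rrp6* with the fusion the limma adjusted p was 0.0709 and 0.0659.

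Of 19 genes of the glyoxylate cycle and fatty acid oxidation, a list drawn up after the values were seen, 3 rose (15.8%, against 1.16% of all genes). The median change was 0.59, against 0.10. The list is weakly expressed, with a median FPKM of 13.1 and 11.5 in wild type, against 29.2 and 33.8 for all genes. Beside *POT1* the genes that rose were *IDP2*, a cytosolic isocitrate dehydrogenase, and *MLS1*, malate synthase. *IDP2* had an FPKM of 6.76 and 11.5 in wild type and 47.0 and 62.0 in *rrp6* with the fusion, a change of 2.83 ± 0.35 (limma adjusted p = 0.0269). *MLS1* had 3.21 and 13.2 in wild type and 21.9 and 26.9 in *rrp6* with the fusion, a change of 2.58 ± 0.33 (limma adjusted p = 0.0277). Without the workbook wild type library these changes were 1.76 and 0.39, with limma adjusted p of 0.193 and 0.858. Both calls were also lost without isolate 2 of *rrp6* with the fusion, each with a limma adjusted p of 0.0567. *CIT2*, the peroxisomal citrate synthase of the same cycle, ran the other way in the workbook, with 404 in its wild type library and 136 and 134 in *rrp6* with the fusion. The first-table wild type library held 119, below both *rrp6* isolates.

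Genes of mating gave 1 call. *PRM1*, a membrane protein of cell fusion, had an FPKM of 4.30 and 5.93 in wild type and 28.0 and 30.1 in *rrp6* with the fusion, a change of 2.50 ± 0.31 (limma adjusted p = 0.0269). Without isolate 2 of *rrp6* with the fusion its limma adjusted p was 0.0567, and without the workbook wild type library it was 0.0831. The 5 alpha-specific genes summed to 34.8 and 35.3 in wild type and 72.9 and 82.2 in *rrp6* with the fusion, while the 7 a-specific genes summed to 2918 and 1680 in wild type and 1249 and 1634 in *rrp6* with the fusion. All strains thus expressed a-specific genes far above alpha-specific genes, and of these 12 genes 0 passed the threshold.

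Members of subtelomeric families also rose. *COS4* had an FPKM of 0.704 and 0.403 in wild type and 12.0 and 19.5 in *rrp6* with the fusion, a change of 3.26 ± 0.41 (limma adjusted p = 0.0277). Without isolate 2 of *rrp6* with the fusion its limma adjusted p was 0.0567, and without the workbook wild type library it was 0.0771. All 10 tested *COS* genes had positive changes, against 58.1% of all genes, with a median of 1.02, against 0.10. Of these 10, 1 was called (10%, against 1.16% of all genes). *PAU17*, of the seripauperin family, rose by 2.32 ± 0.34, and 1 of 9 tested *PAU* genes was called (11.1%, against 1.16% of all genes). Its limma adjusted p was 0.0624 and 0.0967 without isolate 1 and isolate 2 of *rrp6* with the fusion and 0.344 without the workbook wild type library. Both family lists were drawn up after the values were seen, and their members share near-identical sequence, so the authors' counting may have split reads between them. The members of a family may therefore not be separate observations.

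The list of stress genes had a lower median in isolate 1 than in isolate 2 of *rrp6* with the fusion. Of 31 heat shock and stress genes 1 rose, *GRE1*, a hydrophilin gene, with an FPKM of 9.32 and 14.8 in wild type and 49.0 and 47.0 in *rrp6* with the fusion. Its change was 2.25 ± 0.32 (limma adjusted p = 0.0339). Its limma adjusted p was 0.0656 without isolate 1 and 0.0639 without isolate 2 of *rrp6* with the fusion, and 0.29 without the workbook wild type library, where the change was 1.14. The median change of the list was -0.62, and it was -0.93 in isolate 1 and -0.01 in isolate 2. It turned to 1.03 when the workbook wild type library, with its high stress markers, was left out. *HSP12*, a membrane-protecting heat shock protein, had 107 and 66.0 in wild type, 594 and 711 in *rrp6* with the fusion, and 104 and 22.9 in *rrp6* without it. The isolates with both the deletion and the fusion were the high ones, yet the limma adjusted p of the change of 2.60 was 0.185.

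The lists of ribosomal, mitochondrial ribosomal, histone, ribosome biogenesis, glycolytic and phosphate genes had negative medians in this comparison. None of their members passed the threshold. The median change was -0.29 over 136 ribosomal protein genes, with both *rrp6* isolates below both wild type libraries in 86. Over 67 mitochondrial ribosomal protein genes it was -0.46, with 50 below in this way, and over 10 histone genes -0.52, with 6 below. Over all 6289 genes the same was true of 1098 (17.5%). The histone median was -0.02 without the workbook wild type library. Over 70 ribosome biogenesis genes the median was -0.25, but it was 0.23 in isolate 1 and -0.69 in isolate 2, so the isolates disagreed in direction. Over 17 glycolytic genes it was -0.54, and it was 0.24 without the workbook wild type library. Over 16 phosphate genes it was -0.63. Shares of the library total, from which FPKM is made, cannot separate a lower level of these genes from a higher level of others.

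**Figure D4:**
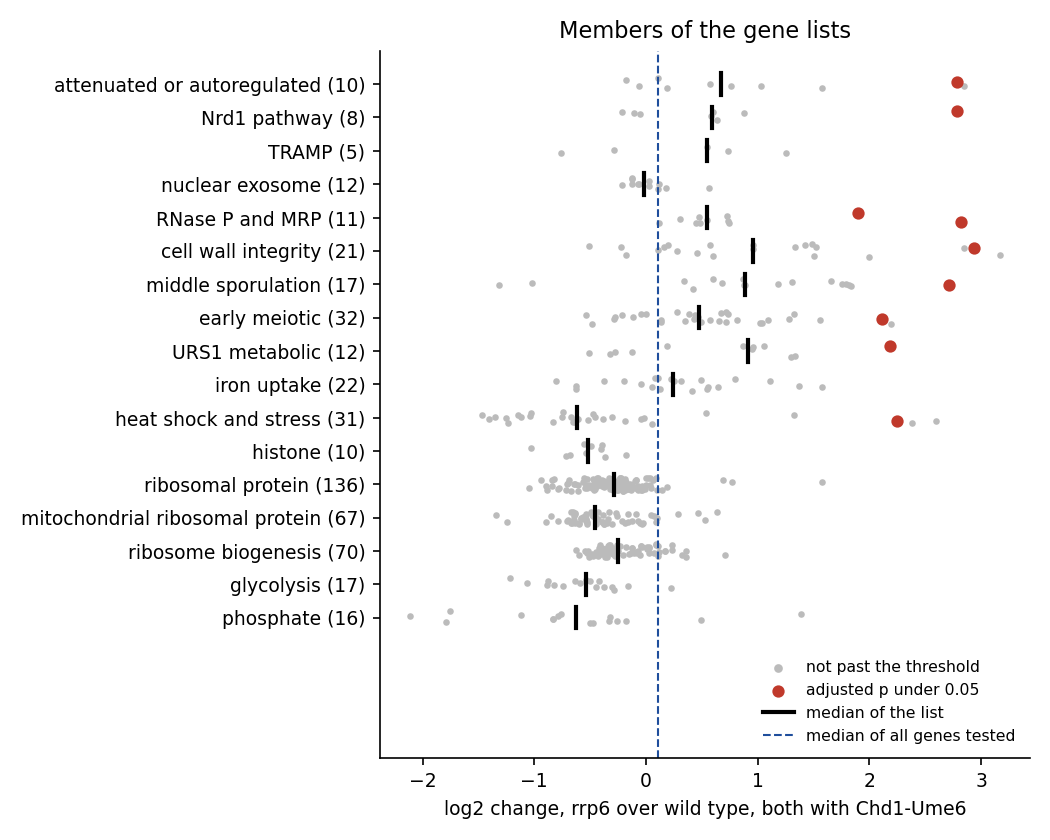
Each point is a tested member of a gene list, with its log2 change on the x axis, *rrp6* over wild type, both with Chd1-Ume6, and the number tested in parentheses. Red points passed an adjusted p under 0.05, black bars are list medians, and the dashed line is the median of all genes, 0.10. Most lists hold 0 or 1 red point.

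The lower genes were few. *YNL134C*, a reductase, had the lowest change, with an FPKM of 457 and 130 in wild type and 63.4 and 108 in *rrp6* with the fusion, a change of -2.45 ± 0.47 (limma adjusted p = 0.0759). Without the workbook wild type library its change was -0.43 (limma adjusted p = 0.913). The 7 genes at least 2-fold below both wild type libraries in both isolates were *HXT1*, *MET5*, *PHO12*, *GRE2*, *YNL040W*, *YBL077W* and *YOL150C*. *HXT1*, a low-affinity glucose transporter, had 116 and 161 in wild type and 48.5 and 46.7 in *rrp6* with the fusion. *MET5*, a subunit of sulfite reductase, had 94.2 and 118 in wild type and 30.8 and 41.5 in *rrp6* with the fusion. The groups were apart for both, with limma adjusted p of 0.214 and 0.133. *YNL040W* had 48.7 and 57.9 in wild type and 16.6 and 15.3 in *rrp6* with the fusion (limma adjusted p = 0.0795). *GAS3*, a putative wall glucanosyltransferase, had 134 and 91.6 in wild type and 49.1 and 48.4 in *rrp6* with the fusion, but 120 and 108 in *rrp6* without it.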

How the data were processed

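Per the file headers, the authors deposited log2 FPKM values without a pseudocount, 1 sheet or column per strain. The workbook sheet of the *ume6* deletion, used here in an alternative alone, fits a log10 scale and was read as the authors' log10 values. Cufflinks 2.2.1, Cuffdiff, TopHat2, CASAVA and SAMtools are listed, without their roles, per the submitters' processing notes. The sources used here name no build, annotation or strand setting, and depth per library is unknown. The sums of FPKM lay between 889087 and 1216137 in the 5 sheets fitted.

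Values were returned to FPKM, and missing values were left missing. limma 3.58.1 in R 4.3.3, with a trend on abundance, was fitted to log2(FPKM + 1) in 5 workbook sheets (3 groups, 2 residual degrees of freedom), over genes with a value in all 5 that reached an FPKM of 1 in 2 or more sheets. The lone wild type sheet with the fusion was assumed to vary like the *rrp6* groups. The fit was also run on simulated data that gave every sheet the same spread for a gene. That run could therefore not test the assumption on the lone wild type sheet. The largest 15 rises and 15 falls, up to 4 members per gene list, and called or 2-fold changed members of the surveillance and engineered lists could be named. Genes and lists were chosen with earlier results of these data known.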

Additional observations from a re-analysis of the deposited data

How the results depend on the processing

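All 73 rises kept their direction in each of the 19 alternatives that included the gene, but the number of genes changed moved widely. It was 17 with a pseudocount of 5, 7 with quantile normalization, 17 with each sheet centred on its median and 201 with *SCR1* taken out of the scaling, an alternative added after seeing the data. It was 359 with all columns of both tables and a table term, 282 with no such term, and 427 with the 3 sheets of the comparison alone, where 1 residual degree of freedom is left and limma shrinks every gene's spread fully to the trend. It ranged from 9 to 425 when 1 library was left out, with 228 without the first-table wild type library and 21 without isolate 2 of *rrp6* with the fusion. Leaving out a library leaves fewer degrees of freedom or another control, and the cause of the other moves was not tested. The isolate numbers pair only 2 groups, and the isolates' differences correlated at -0.33. With isolate number as a replicate block 152 genes changed, and with the pairing crossed, also added later, 95. Lower genes were 15 of the calls with the table term, 12 with no table term, 49 with the 3 sheets and 48 without either *rrp6* isolate lacking the fusion. They were 8 with the block, 4 with the crossed pairing, 4 without the first-table library, 1 and 3 without isolate 1 and 2 of *rrp6* with the fusion, and 1 without *SCR1*. A pseudocount of 0.1, no filter on low values, all 7 workbook sheets and no trend gave 101, 77, 75 and 80.

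The median of the genes facing a snoRNA or snRNA gene (0.52) was 0.34 with centred sheets, and 0.35 to 0.61 when a library was left out. That of the genes downstream on the same strand (0.19) was 0.0413 with quantile normalization, 0.0136 with centred sheets, 0.0477 with no table term and 0.35 without *SCR1*. Depth is unknown, and missing values limit what can be said of weakly expressed genes.

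Of 608 medians of the 32 gene lists under the alternatives, 87 moved by more than the SD between the *rrp6* isolates with the fusion and 32, in 12 lists, took the opposite sign. Those were the lists of stress, glycolytic, ribosome biogenesis, early meiotic, *PAU*, nuclear exosome, TRAMP, cytoplasmic decay, export, hexose transport, respiratory and marker genes. The stress median took 0.40 and 1.03 and the glycolytic 0.24. The early meiotic median took -0.0136 and the *PAU* median -0.17, both with quantile normalization. The TRAMP median took -0.0387 with no table term, and the ribosome biogenesis median at most 0.23.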

Other observations

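Long and short noncoding RNAs listed by name gave 0 calls in limma, where *RNA170*, *SRG1* and *RUF20* had an unadjusted p under 0.05. *SRG1*, a regulatory transcript that runs into the *SER3* promoter in yeast, had an FPKM of 60.6 and 84.3 in fusion-carrying wild type, 132 and 139 in *rrp6* with the fusion and 167 and 194 in *rrp6* without it. Its change was 1.14 ± 0.31 (limma adjusted p = 0.149), and the groups did not overlap. *RNA170* had 29.5 and 11.6 in wild type and 74.5 and 161 in *rrp6* with the fusion, with a limma adjusted p of 0.15. *TLC1*, the telomerase RNA, and *HRA1* had changes of 0.36 and 0.01.

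Missing values were uneven between the libraries. In the workbook wild type library with the fusion 120 genes had no value while both *rrp6* isolates with the fusion did, and 97 of them had one in the first-table wild type library. Of the 120, 10 were at 10 FPKM or more in both *rrp6* isolates, and all 10 had no RefSeq entry. The reverse, no value in either *rrp6* isolate with the fusion, held for 6 genes, the highest apart from *SCR1* at 13.2 FPKM in the workbook wild type library.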
